A study of Mus musculus with 6 samples.

Results

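The genes that make, carry and break down dopamine were described in the midbrain of embryos that lack Lmx1b in Pitx3-positive neurons. They were taken by name and are 9 of the 26852 genes measured: Th, Ddc, Gch1, Slc18a2, Slc10a4, Slc6a3, Drd2, Maoa and Maob. All 9 were found, all 9 had their reads per library recovered, and all 9 passed the minimum mean normalized count of 10 that was asked of a gene before it was tested. None of the 9 had an adjusted p under 0.05 in limma. Slc10a4, a carrier-like protein of monoamine and cholinergic vesicles, had 0.774 times its control mean in the Lmx1b cKO, and Ddc, the enzyme that turns L-DOPA into dopamine, had 0.834 times. Both had an unadjusted p under 0.05, as did 2.80% of all genes tested, and no overlap between the groups, as did 3.79% of all genes in this direction. For Ddc the call was lost in 4 of 6 fits that left out 1 library. Drd2, the D2 receptor, had 1.21 times its control mean, also without overlap, as were 3.88% of all genes in this direction, but with an unadjusted p of 0.0632 in limma. The cKO and control libraries overlapped for Th, Gch1, Slc18a2, Slc6a3, Maoa and Maob.

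Total RNA of dissected C57Bl/6 midbrain at E14.5 was sequenced for 2 genotypes, Lmx1b fl/fl;Pitx3-Cre (Lmx1b cKO, 3 libraries) and Lmx1b wt/wt;Pitx3-Cre (control, 3 libraries). Each library held RNA of 2 pooled embryos, and the embryos came from 4 litters. The Cre sits in the Pitx3 locus, so control embryos also carry Cre and have lost 1 Pitx3 allele. The Cre is active only in Pitx3-positive neurons and from shortly before this stage, whereas the dissected tissue holds the other cells of the midbrain too. Fewer dopaminergic neurons and less RNA per neuron cannot be told apart in such material.

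The values used are the deposited means of the size-factor-normalized counts of each genotype, and the whole-number counts of the libraries were worked out from these means. The libraries recovered in this way carry a genotype but no sample number, and the letters a, b and c name them within a group from the largest size factor to the smallest. On the 26334 recovered genes (98.1%) there were 20442857 to 24826325 reads in a library. The p-values measure the spread between these pooled libraries. Lmx1b itself had a mean normalized count of 1371 in cKO libraries and of 1398 in control libraries (log2 fold change -0.03, adjusted p = 1.00 in limma). These counts cover the whole gene in all cells of the tissue, and they do not check the labels. The library of cKO replicate c stood apart by genes of bone and mesenchyme, whose summed level was 13873 normalized counts there and at most 2063 elsewhere.

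Dopamine is made from tyrosine in 2 steps. Tyrosine hydroxylase (Th) makes L-DOPA with the cofactor tetrahydrobiopterin (BH4), whose synthesis starts with GTP cyclohydrolase (Gch1), and aromatic L-amino acid decarboxylase (Ddc) makes dopamine. The vesicular monoamine transporter (Slc18a2) packs dopamine into vesicles, the dopamine transporter (Slc6a3) takes it back from outside the cell, D2 autoreceptors (Drd2) restrain its release, and the monoamine oxidases (Maoa and Maob) break it down. The paper uses Th, Ddc, Slc18a2 and Slc6a3 as general marks of the mesodiencephalic dopaminergic (mdDA) neurons. Maoa and Maob are not taken here as marks of these neurons. Serotonergic neurons also use Ddc, Gch1, Slc18a2 and the monoamine oxidases, and noradrenergic neurons also use Th and others of these genes.

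The sequences before the start sites of Th and Ddc are shown because both windows hold letters of factor sites and because Ddc had, over all 6 libraries, the highest Pearson r with Th of the other 8 genes (without control replicate c and cKO replicate b, that of Slc10a4 was higher). Of the 9 genes, all but Maob (8 genes) had a RefSeq start on GRCm38.p6, with 9 windows of 250 bases in all, of which Ddc has 2. The windows were searched for 4 short motifs on both strands, and the capitals mark the letters found.
Th: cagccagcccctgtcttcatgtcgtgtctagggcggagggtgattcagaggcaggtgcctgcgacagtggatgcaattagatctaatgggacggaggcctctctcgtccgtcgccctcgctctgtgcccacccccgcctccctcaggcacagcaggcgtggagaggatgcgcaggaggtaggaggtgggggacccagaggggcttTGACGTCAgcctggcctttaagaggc
Ddc: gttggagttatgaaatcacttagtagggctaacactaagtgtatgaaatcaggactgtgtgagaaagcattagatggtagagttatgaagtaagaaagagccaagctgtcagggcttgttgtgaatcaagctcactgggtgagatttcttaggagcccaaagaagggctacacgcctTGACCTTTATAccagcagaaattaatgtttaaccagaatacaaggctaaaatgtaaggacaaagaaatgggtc
The Th stretch is chr7:142900015-142900245 on the minus strand of GRCm38.p6 and ends 19 bases short of the RefSeq start, since GENCODE places those bases in the first exon. It lies within an intron of longer Th transcripts that GENCODE starts farther upstream. The cyclic AMP response element TGACGTCA, which reads the same on both strands, is at positions -45 to -38 from the start, and 1.55% of 32851 RefSeq windows hold it. The Ddc stretch is chr11:11898145-11898394 on the minus strand, before the farther upstream of its 2 starts and outside the annotated gene. It holds TGACCTTT, the other strand of AAAGGTCA (the site bound by NURR1, the product of Nr4a2), at positions -73 to -66, and 1.34% of windows hold this motif on either strand. Its last letters overlap TTTATA, the other strand of the TATA motif TATAAA, which 12.4% of windows hold and which Gch1 also has. The window before the other Ddc start, chr11:11890409-11890658, held none of the 4 motifs. Which of the 2 starts the cells of this tissue use was not tested. The homeodomain core TAATTA was in none of the 9 windows and in 4.84% of all windows. A match is a run of letters and not a measured site, and no match says only that these letters are not in the window.

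Th (ENSMUSG00000000214, chromosome 7 of GRCm38, 142892752 to 142931128) encodes the rate-limiting enzyme of dopamine synthesis. Normalized counts of Th were 745 (a), 733 (b) and 778 (c) in the cKO libraries and, in the same order of replicates, 776, 790 and 976 in those of the control. The 3 cKO libraries lay close together, control replicate c stood above all others, and the highest cKO library was just above the lowest control library. The means were 752 ± 23.3 in the cKO and 847 ± 112 in the control (SD, n = 3). On the log2 scale the cKO minus control difference was -0.16 ± 0.099 (SE, 95% interval -0.37 to 0.06), and the unadjusted p in limma was 0.141. Without control replicate c it was -0.06.

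Ddc (ENSMUSG00000020182, chromosome 11, 11814101 to 11898144) had normalized counts of 1552, 1580 and 1608 in the cKO and 1707, 1699 and 2274 in the control. No cKO library reached the lowest control library, and control replicate c was again the highest. The highest cKO library had 0.946 times the count of the lowest control library. The means were 1580 ± 28.4 and 1893 ± 329 (SD, n = 3). On the log2 scale the cKO minus control difference was -0.24 ± 0.10 (SE, 95% interval -0.46 to -0.02) and the unadjusted p in limma was 0.0355, with an adjusted p of 1.00. Leaving out control replicate c gave -0.11 with an unadjusted p of 0.147, and leaving out cKO replicate a, b or c gave -0.23, -0.24 and -0.25 with unadjusted p-values of 0.0769, 0.0737 and 0.0555, so only the fits without control replicate a or b kept the p under 0.05.

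Gch1 (ENSMUSG00000037580, chromosome 14, 47153895 to 47189413) encodes the first enzyme of BH4 synthesis, on which tyrosine hydroxylase depends. In the order a, b and c, normalized counts were 190, 166 and 192 in the cKO and 196, 173 and 264 in the control. The groups overlapped, and control replicate c was once more the highest library. The log2 fold change in limma was -0.17 (SE 0.18, 95% interval -0.56 to 0.22, adjusted p = 1.00), and it was -0.01 without control replicate c.

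**Figure D1:**
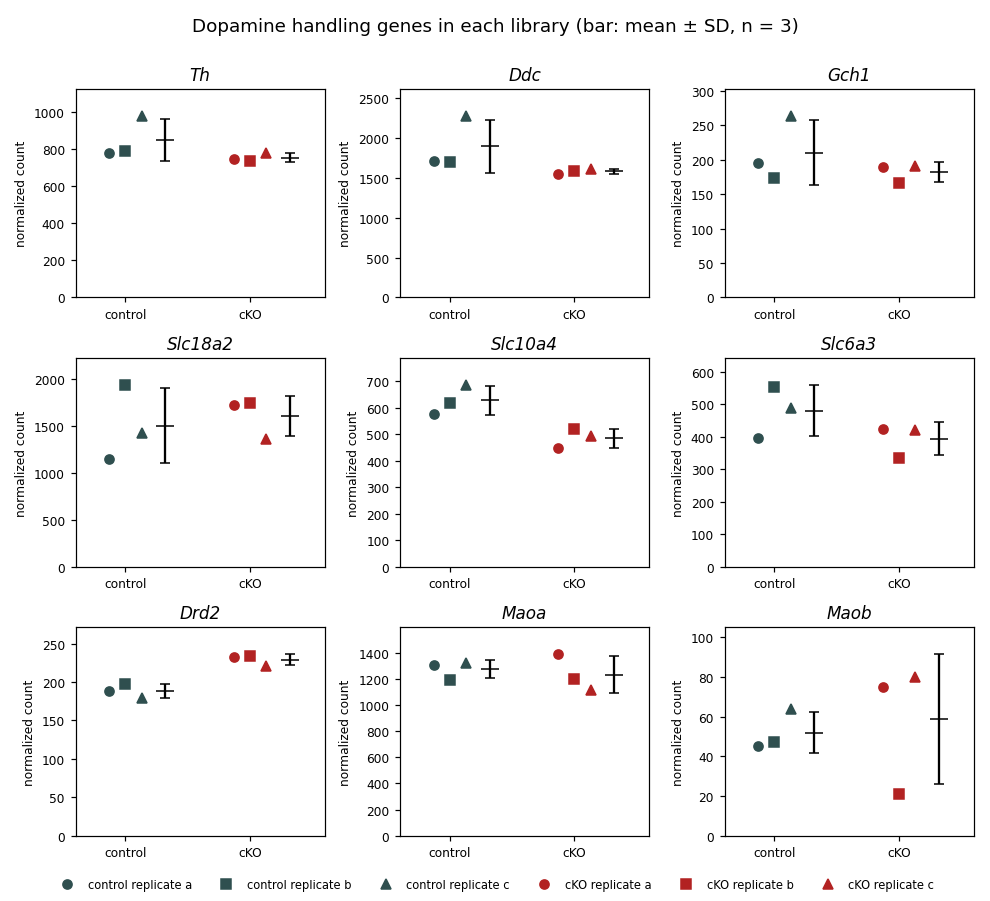
Normalized count (vertical axis, from 0) of each of the 9 genes in the 3 control and 3 cKO libraries, with the mean and SD of each group beside the points. All cKO points are below all control points for Ddc and Slc10a4 and above for Drd2, and control replicate c is the highest library for Th, Ddc, Gch1 and Slc10a4.

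The carriers of the vesicle membrane are the monoamine transporter and the carrier-like Slc10a4. Slc18a2 (ENSMUSG00000025094, chromosome 19, 59260896 to 59296012), the gene of VMAT2, had normalized counts of 1723, 1748 and 1367 in the cKO and 1152, 1938 and 1424 in the control. The control libraries held both the lowest and the highest value of the 6, with control replicate a low and control replicate b high. The means were 1613 ± 213 and 1504 ± 399 (SD, n = 3), and the log2 fold change in limma was 0.13 (SE 0.16, 95% interval -0.21 to 0.48, adjusted p = 1.00). The value was 0.34 without control replicate b, with an unadjusted p of 0.0177, and -0.06 without control replicate a, so its direction rested on which control library was kept. Of the exon bases of Slc18a2, 2.12% are shared with Gm29261 on the opposite strand, and no other of the 9 genes shares exon bases with another gene.

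Slc10a4 (ENSMUSG00000029219, chromosome 5, 73006883 to 73012955) had normalized counts of 447, 518 and 491 in the cKO and 578, 620 and 685 in the control. All cKO libraries were below all control libraries, and the highest cKO library had 0.896 times the count of the lowest control library. The means were 485 ± 35.8 and 627 ± 53.9 (SD, n = 3). On the log2 scale the cKO minus control difference was -0.37 ± 0.10 (SE, 95% interval -0.59 to -0.14), and the unadjusted p in limma was 0.0043 with an adjusted p of 1.00. It kept an unadjusted p under 0.05 in 6 of 6 fits that left out 1 library, with log2 fold changes between -0.43 and -0.30.

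Slc6a3 (ENSMUSG00000021609, chromosome 13, 73536747 to 73578672), the gene of the dopamine transporter, had normalized counts of 423, 334 and 421 in the cKO and 396, 552 and 489 in the control. Control replicate a was below cKO replicates a and c, and the other control libraries were above all cKO libraries. The means were 393 ± 51.0 and 479 ± 78.5 (SD, n = 3). On the log2 scale the cKO minus control difference was -0.27 ± 0.15 (SE, 95% interval -0.59 to 0.05) and the unadjusted p in limma was 0.0874. Without control replicate a it was -0.41, with an unadjusted p of 0.00984, and without control replicate b it was -0.16.

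Drd2 (ENSMUSG00000032259, chromosome 9, 49340627 to 49408177) encodes the D2 receptor, which midbrain dopamine neurons carry as an autoreceptor. Normalized counts of Drd2 were 232, 234 and 221 in the cKO and 188, 198 and 179 in the control. Every cKO library was above every control library, and each group was tight, with SDs of 7.0 and 9.3 around means of 229 and 189 (n = 3). On the log2 scale the cKO minus control difference was 0.28 ± 0.14 (SE, 95% interval -0.02 to 0.58) and the unadjusted p in limma was 0.0632. With 1 library left out it ranged from 0.25 to 0.31, with an unadjusted p under 0.05 in 0 of 6 fits. Drd2 was the only gene of the 9 that was without overlap higher in the cKO.

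The monoamine oxidase genes neighbour each other on the X chromosome. Maoa (ENSMUSG00000025037, 16619698 to 16687818) had normalized counts of 1387, 1197 and 1114 in the cKO and 1307, 1192 and 1323 in the control. The ranges overlapped, and the means of 1233 ± 140 and 1274 ± 71.4 (SD, n = 3) gave a log2 fold change of -0.05 (SE 0.09), which was 0.02 without cKO replicate c and -0.14 without cKO replicate a. Its 95% interval, from -0.24 to 0.15, was the narrowest of the 9 genes. Maob (ENSMUSG00000040147, 16709282 to 16817366), with 20 to 80 reads per library, had normalized counts of 75.0, 21.1 and 80.1 in the cKO and 45.1, 47.1 and 63.7 in the control. The cKO libraries enclosed the control libraries on both sides. Its log2 fold change of 0.01 (SE 0.44) had a 95% interval from -0.96 to 0.97. Without cKO replicate b, the lowest library, it was 0.60 (unadjusted p 0.0552 in limma).

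**Figure D2:**
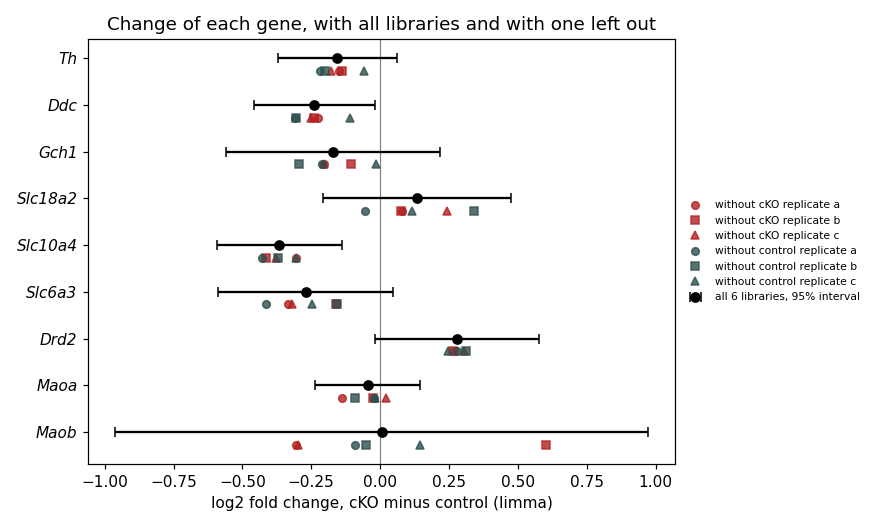
Log2 fold change of each gene, cKO minus control, from limma with all 6 libraries (black points, bars are 95% intervals) and with 1 library left out (coloured points under each bar). The intervals of Ddc and Slc10a4 lie below 0, and the points of Th, Ddc and Gch1 move toward 0 when control replicate c is left out.

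Of the 9 genes, 6 had a negative and 3 a positive log2 fold change, with a median of -0.16, where 50.0% of all 16659 genes tested were lower and the median was -5.1e-05. With an unadjusted p under 0.05 in limma there were 2 of the 9 genes, Ddc and Slc10a4, and 467 of 16659 genes (2.80%). Both were lower, as were 1.61% of all genes, and 0 of 9 were higher, against 1.19% of all genes. An adjusted p under 0.05 was reached by 0 of 9 genes and by 0 of 16659 genes (0%). The groups did not overlap for 2 of 9 genes that were lower in the cKO, against 3.79% of all genes, and for 1 of 9 genes that was higher, against 3.88% of all genes. With groups this small, an exact permutation test of 3 against 3 libraries cannot give a two-sided p below 0.1, and Ddc, Slc10a4 and Drd2 were at this value (exact p = 0.1), with the other 6 genes between 0.2 and 0.8.

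Much of the size of the lower values of Th, Ddc and Gch1 rested on control replicate c. Without this library, Th, Ddc, Gch1, Slc10a4, Slc6a3 and Maoa still had a negative log2 fold change. Ddc and Slc10a4 then still did not overlap between the groups. Control replicate c was the highest control library for 6 of the 9 genes and the lowest for 1, whereas control replicate a was the highest for 0 and the lowest for 5. The median log2 fold change of the 9 genes was -0.02 without control replicate c. Slc10a4 was then the 1 gene with an unadjusted p under 0.05 in limma, as it was without cKO replicate a, b or c. The spread was smaller between cKO libraries than between control libraries for 7 of the 9 genes, with coefficients of variation from 1.80% (Ddc) to 55.6% (Maob) in the cKO and from 4.93% (Drd2) to 26.5% (Slc18a2) in the control. The matching shares over all genes were not computed, so these counts of libraries and spreads are not read as a trait of the 9 genes.

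The ratio to Th in the same library asks whether a gene moved apart from Th, and is independent of the scaling between libraries. For Drd2 this ratio was 0.312, 0.318 and 0.284 in the cKO and 0.243, 0.251 and 0.184 in the control. All cKO ratios were above all control ratios (means 0.305 ± 0.018 and 0.226 ± 0.037, SD, n = 3, exact permutation test, two-sided, p = 0.1, 0.533 after adjustment over the 8 ratios). The ratio of Slc10a4 to Th was 0.600, 0.706 and 0.631 in the cKO and 0.745, 0.785 and 0.701 in the control. The Slc10a4 ratios overlapped by cKO replicate b alone, which lay just above control replicate c (exact permutation p = 0.2, adjusted 0.533). The ratio of Ddc to Th was 2.10 ± 0.046 and 2.23 ± 0.091 (SD, n = 3), also with overlap (exact permutation p = 0.2). Of the 8 ratios, 1 (Drd2) was without overlap higher in the cKO and 0 were without overlap lower, against 13.9% and 0.672% of the 16658 genes tested other than Th. This count is close to that of all genes, and the exact p-values of the other 7 ratios lay between 0.2 and 0.9.

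**Figure D3:**
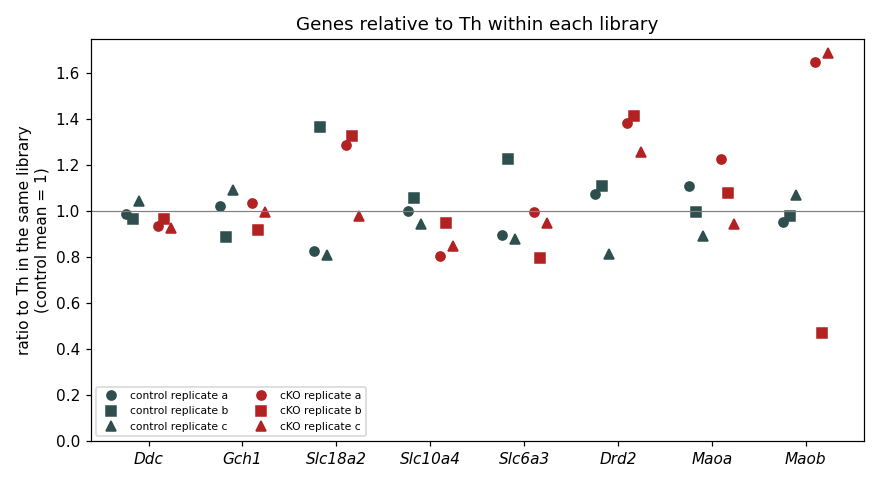
Ratio of the normalized count of each gene to that of Th in the same library, divided by the control mean of that ratio (vertical axis, from 0), for the 3 control and 3 cKO libraries. The cKO points of Drd2 lie above all its control points, and those of the other 7 genes overlap the control points.

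Nr4a2, the nuclear receptor gene that is needed for mdDA identity, had the values most like those of Th over the 6 libraries (Pearson r = 0.996 of log2 normalized counts, among 12396 genes with a mean of at least 100). Normalized counts of Nr4a2 were 3051, 3047 and 3098 in the cKO and 3126, 3133 and 3484 in the control, with control replicate c again the highest. Ddc came next (r = 0.985), followed by Gm9833 (0.982), Enpp2 (0.981) and Nup153 (0.974). Without control replicate c and cKO replicate b, the libraries farthest from the median of Th, r was 0.935 for Nr4a2, 0.823 for Ddc, 0.387 for Gm9833, 0.568 for Enpp2 and 0.120 for Nup153. For Gch1 the drop was larger, from an r of 0.919 over all 6 libraries to -0.47 without the same libraries, and Maoa went from 0.238 to -0.75. Over all 6 libraries r was 0.779 for Slc10a4, 0.539 for Slc6a3, -0.26 for Slc18a2 and -0.78 for Drd2, against 0.845, 0.506, -0.07 and -0.71 without them, and Maob was below the mean of 100. These libraries differ in genotype and depth, their litters are not labelled, and the values of r are a description of 6 points.

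Levels of different genes can be set beside each other only per length. In the control, Ddc was the highest with 424 normalized counts per kb of exon, followed by Th (358), Maoa (306), Slc10a4 (298), Slc18a2 (288), Slc6a3 (139), Drd2 (74.0), Gch1 (33.7) and Maob (18.6). The ranges of Ddc and Th, of Maoa and Slc10a4 and of Slc10a4 and Slc18a2 overlapped, and the other neighbours in this order did not. In the cKO the order was Ddc (354), Th (318), Slc18a2 (309), Maoa (296), Slc10a4 (230), Slc6a3 (114), Drd2 (89.9), Gch1 (29.2) and Maob (21.1). Here Slc18a2 overlapped with both Th and Maoa, and Gch1 overlapped with Maob. These levels depend on the gene model: with the longest transcript as the length, Ddc had 938 per kb in the control, Th 435 and Gch1 60.1.

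**Figure D4:**
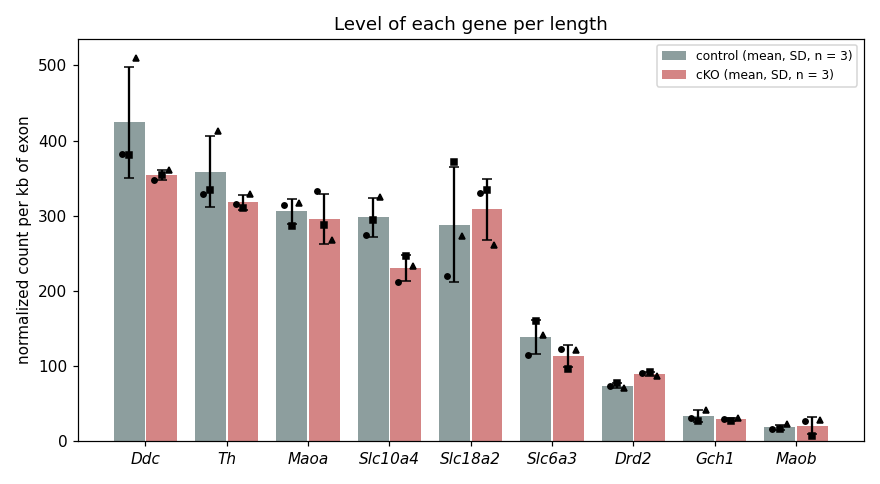
Normalized count per kb of exon (vertical axis, from 0) of the 9 genes in control and cKO, with the bars at the mean, error bars at 1 SD and the 3 libraries as points. Ddc, Th, Maoa, Slc10a4 and Slc18a2 form the upper group and Drd2, Gch1 and Maob the lower group in both genotypes.

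BH4 is made and recycled by a short chain of enzymes. Of 8 genes of this list, 7 were lower and 1 was higher, with a median log2 fold change of -0.06 (-0.13 without control replicate b), and 1 had an unadjusted p under 0.05. This was Gchfr, the feedback regulator of GTP cyclohydrolase, with normalized counts of 18.7, 16.9 and 36.8 in the cKO and 29.2, 46.1 and 67.0 in the control. The groups overlapped, the log2 fold change was -0.94 (SE 0.43, adjusted p = 1.00 in limma), and its unadjusted p was under 0.05 in 2 of 6 fits that left out 1 library. The highest gene of this list, Qdpr, which regenerates BH4, had 1332 and 1330 normalized counts in the cKO and control, and 18.6% of its exon bases are shared with Gm42413 on the opposite strand.

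Of the 8 genes of dopamine breakdown, 7 were tested, with 2 lower, 5 higher and a median of 0.01 (-0.02 without control replicate b and 0.04 without control replicate c). Aldh1a1, an aldehyde dehydrogenase of a subset of mdDA neurons that also makes retinoic acid, was the 1 with an unadjusted p under 0.05. Its normalized counts of 981, 672 and 816 in the cKO were all above those of 337, 554 and 439 in the control (log2 fold change 0.92, standard error 0.18, adjusted p = 1.00 in limma), and it kept an unadjusted p under 0.05 in 6 of 6 fits that left out 1 library. The most abundant gene, Akr1a1, had means of 8566 and 8465 normalized counts. Among the 5 dopamine receptor genes, 4 were tested, and 0 had an unadjusted p under 0.05. Their median of -0.10 ranged from -0.21 without control replicate c to 0.17 without control replicate a. Drd2 was the only one of them that was higher, Drd1, Drd4 and Drd5 had means of 59.9, 11.4 and 11.1 normalized counts in the control, and Drd3 was at the floor of 3 reads in all libraries of both groups. Of the exon bases of Drd5, 48.6% are shared with Gm26560 on the opposite strand.

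Among 11 vesicular carriers of transmitters, 9 were tested, of which 4 were lower and 5 higher, with a median log2 fold change of 0.02, which was -0.10 without control replicate a. Beside Slc10a4, an unadjusted p under 0.05 was found for Slc17a6, the vesicular glutamate transporter VGLUT2, with a mean normalized count of 6149 in the cKO against 5612 (log2 fold change 0.13, adjusted p = 1.00 in limma). Its groups did not overlap, but the log2 fold change was 0.07 without cKO replicate a (unadjusted p 0.220) and 0.10 without control replicate c (unadjusted p 0.171). Slc18a1 was at the floor of 3 reads in the cKO and below the minimum mean. The reads of Sv2a were not recovered, and the authors' means were 11513 and 11343. All 5 amine carriers of the plasma membrane had a fitted log2 fold change below 0, although the mean of Slc6a2 was higher in the cKO (80.3 against 75.3, fitted value -0.09 with an SE of 1.09). The median was -0.27, and it lay between -1.06 (without cKO replicate b) and -0.32 with 1 library left out and at -1.10 with the Y-linked level as a covariate. Of the 5 carriers, 2 had an unadjusted p under 0.05. These were Slc6a4, the serotonin transporter, with 82.4, 127 and 200 against 278, 245 and 392 normalized counts (log2 fold change -1.23), and Slc22a3, a low-affinity monoamine carrier, with 17.8, 10.6 and 14.1 against 44.2, 38.4 and 64.8 (log2 fold change -1.73). Neither overlapped between the groups, and the adjusted p was 1.00 for both. Slc29a4, the most abundant carrier of this list, had means of 3291 and 3340. Of the exon bases of Slc22a3, 9.31% are shared with Plg on the opposite strand.

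The transcription factors of mdDA neurons were lower for 8 of 9 genes, with a median of -0.09, which was -0.20 without cKO replicate c and -0.17 without control replicate b. An unadjusted p under 0.05 was found for 3 of them. Pitx3, which works together with NURR1 on dopamine genes, had normalized counts of 111, 162 and 150 in cKO libraries, while control libraries had 177, 180 and 198. The groups did not overlap, but Pitx3 had an unadjusted p under 0.05 in 2 of 6 fits that left out 1 library. Its log2 fold change of -0.41 was -0.24 without cKO replicate a (unadjusted p 0.210), and it was -0.44, -0.43 and -0.37 without control replicate a, b and c, with unadjusted p-values of 0.0508, 0.0616 and 0.105. En1 and En2, homeobox genes of the midbrain and its boundary, had log2 fold changes of -0.40 and -0.46 (adjusted p = 1.00 in limma for these 3 factors), and both kept an unadjusted p under 0.05 in 6 of 6 fits that left out 1 library. The most abundant factor, Nr4a2, had a log2 fold change of -0.08 (unadjusted p 0.189 in limma). Its groups did not overlap, as for 3.79% of all genes in this direction. Its highest cKO library had 0.991 times the count of its lowest control library.

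Other cell types that use the same genes were followed by their own markers. Of 6 serotonergic genes, 4 were lower, and Tph2, Fev and Slc6a4 had an unadjusted p under 0.05, with log2 fold changes of -0.86, -0.93 and -1.23. Tph2, the defining enzyme, had 82.4, 61.3 and 169 normalized counts in cKO libraries and 202, 164 and 148 in the control, so it was present in all libraries. Without cKO replicate b its log2 fold change was -0.57 (unadjusted p 0.0773). Fev overlapped between the groups and had an unadjusted p under 0.05 in 3 of 6 fits that left out 1 library, but not without cKO replicate a (-0.50, unadjusted p 0.158), cKO replicate b (0.0733) or control replicate c (0.0553). Slc6a4 had an unadjusted p under 0.05 in 6 of 6. The summed level of the list, which is mostly Gata3, was 3482 to 4036 in the cKO and 3558 to 4438 in the control. Gata2 and Gata3, which midbrain GABAergic neurons also express, had log2 fold changes of 0.04 and 0.003. Htr1a, the remaining gene of the list, had a log2 fold change of -0.09 (unadjusted p 0.608 in limma). Tph2, Fev and Slc6a4 were lower in the cKO, as were Ddc and Slc10a4. Gch1, with a log2 fold change of -0.17, overlapped between the groups, and Slc18a2 had a positive value (0.13). The part of serotonergic neurons in the values of Ddc, Gch1, Slc18a2 and Slc10a4 was not tested. The noradrenergic list summed to 36.8 to 276 in the cKO and 78.8 to 402 in the control, with 0 of 4 tested genes at an unadjusted p under 0.05. The part of noradrenergic neurons in the values of Th and of the other genes that they use was not tested.

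Genes of bone and mesenchyme, cells that can come with a dissection, varied widely between libraries. The 10 genes summed to 498 to 13873 normalized counts in cKO libraries and 498 to 583 in the control, and all 10 were highest in cKO replicate c, led by Col1a1 with 6097 there. Of 9 tested genes all were higher, with a median of 1.76, which was 0.56 without cKO replicate c and 2.58 without cKO replicate b. Col3a1 had an unadjusted p under 0.05 with all libraries and in 3 of 6 fits that left out 1 library (log2 fold change 1.03 to 2.58), and lost it without control replicate a, b or c (1.86, 1.75 and 1.90, unadjusted p 0.0733, 0.0794 and 0.0740). For Slc10a4, Ddc and Drd2 the log2 fold changes without cKO replicate c were -0.38, -0.25 and 0.30, against -0.37, -0.24 and 0.28 with it. In the same fit Slc18a2 went from 0.13 to 0.24 and Maoa from -0.05 to 0.02. Replicate a of the cKO, which stayed in, had a summed level of 2063, and the part of these cells in the values of the 9 genes was not tested. The vascular and pericyte list summed to 9943 to 10347 in the cKO and 9644 to 10000 in the control, led by Rgs5, and the cycling list to 5369 to 6810 and 5308 to 8136, led by Top2a, each with 0 genes at an unadjusted p under 0.05. Of 8 pan-neuronal genes the reads of 2 were recovered, with 0 at an unadjusted p under 0.05, and Tubb3, the most abundant, had authors' means of 64101 and 63843. The Y-linked genes, a measure of the share of male embryos in a pool, led by Kdm5d, summed to 3597 to 4938 in the cKO and 2476 to 8585 in the control. With their level as a covariate, the log2 fold change of Ddc was -0.20 (unadjusted p 0.0628), and the unadjusted p of Slc10a4 stayed under 0.05.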

How the data were processed

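Total RNA of E14.5 mouse midbrain was sequenced in 3 Lmx1b cKO and 3 control libraries. The submitters' processing notes name TopHat 1.0.14, Bowtie2 2.1.0, HTSeq 0.6.1p1 and DESeq 1.10.1 on GRCm38.p4, and the paper names DESeq2. How the counting used the strand is not given in the sources used here. The coverage columns that the authors deposited hold, for 26852 genes and 3 lines that name no gene (31.8% of the mean counts, left out), the mean signal of each genotype in read counts that had been scaled by library size factors. The authors' ratio and p-value columns were not used.

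The whole counts behind each mean were searched up to a sum of 30000 reads. Exactly 1 answer was found for 26334 genes (98.1%), with 68.8% of the normalized counts on genes. The search and the fits were tested on simulated data. The recovered size factors differed by at most 0.145% from those recomputed from the counts. In place of the count test of the study, limma 3.58.1 (R 4.3.3) was run on these recovered counts (voom weights, recovered size factors, genotype as the term). The fit covered 16659 genes with a mean of at least 10, and adjusted p-values are Benjamini-Hochberg values over all of them. Counts and ratios of single genes were compared by exact permutation tests, two-sided. A gene with at most 3 reads in every library of a group was taken as at the floor.

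The 9 genes, the lists of BH4, breakdown, receptor, carrier and mdDA genes and the marker lists were chosen with earlier results of these data known. Named genes are the 9, list genes with an unadjusted p under 0.05, the most abundant gene of each list, genes at the floor and the 5 genes most like Th. Other genes, such as Lmx1b, Drd1, Drd4, Drd5 and Gata2, were named after their values were seen. Exon lengths, overlaps and positions came from GENCODE vM21, for 26693 of 26852 genes, and upstream sequences from RefSeq (GRCm38.p6). Alternatives were other minimum means, recomputed size factors, total reads as the scale, limma-trend with pseudocounts of 1 and 10, Y-linked or cycling levels as covariates, each library left out, another reference than Th and the longest transcript as the length. The counts were searched in Python 3.11.15 with numba 0.67.0 and numpy 2.4.6, exact tests ran in scipy 1.17.1 and figures were drawn with matplotlib 3.10.9.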

Additional observations from a re-analysis of the deposited data

How the results depend on the processing

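The number of the 9 genes with an unadjusted p under 0.05 was 2 and became 1 with the Y-linked level as a covariate, and it ranged from 1 to 3 with each of the libraries left out. It was 1 without cKO replicate a, b or c or control replicate c. The share of all genes with such a p, 2.80% with all libraries, was 3.72% with that covariate and ranged from 2.03% without control replicate c to 3.84% without control replicate a. Under all alternatives run, 0 of the 9 genes had an adjusted p under 0.05, and of all genes 1 had one with either covariate and 3 without control replicate a. Slc10a4 kept its direction in all 15 of its alternatives and an unadjusted p under 0.05 in each that has a test (the ratio of the deposited means has none), and Ddc lost the threshold in 5 with its direction kept. The log2 fold change of Slc18a2 became -0.056 without control replicate a (range 0.34 down to -0.056 over the libraries left out), and that of Maoa became 0.023 without cKO replicate c (lowest -0.14). That of Maob was -2.0e-05 with total reads as the scale and -0.025 in limma-trend with a pseudocount of 1, and it ranged from -0.30 to 0.60 over the libraries left out. Slc6a3 passed the threshold with the cycling level as a covariate (-0.31, unadjusted p 0.0182). The cause of these differences was not tested. With the sum of Th, Ddc and Slc6a3 as the reference, the difference of the Gch1 ratio changed sign (-0.0044 to 0.0069). Over all genes, 974 genes had an unadjusted p under 0.05 without a minimum mean (26334 genes tested) and 303 with a minimum of 100 (12427 tested), against 467 of 16659. No paired analysis was possible because the recovered libraries carry no number. The header of the deposited table numbers the libraries N1 to N3 in both genotypes, so a pairing may exist, but which recovered libraries would form a pair is not known. With 3 libraries a group, an exact test of 1 gene cannot pass 0.05.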
